A study of Mus musculus with 11 samples.

Results

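The circadian clock genes described here are the 10 genes Arntl, Clock, Per1, Per2, Per3, Cry1, Cry2, Nr1d1, Nr1d2 and Dbp. They were taken by symbol from a table of 55471 mouse genes, and all 10 were matched to an Ensembl gene and passed the filter on low counts, as did 12404 genes in all. RNA was sequenced from CD4+ cells of C57BL/6 mice, taken from joint draining lymph nodes (inguinal and axillary). The cells were purified by untouched bead selection and kept for 2 h with 1.25 μg/ml concanavalin A, which is a plant lectin used to activate T cells. GLC libraries (n = 6, replicates 6, 78, 9, 10, 11 and 12) came from Pggt1bfl/flLys-Cre mice, in which Pggt1b, a subunit gene of the protein prenyltransferase GGTase-I, is deleted in macrophages by a Cre driven from the lysozyme locus. WT libraries (n = 5, replicates 1 to 5) came from mice with genotype WT, and both groups had the same culture and lectin. GLC replicate 78 pooled RNA of 2 mice. The hour at which tissue was taken, which matters for genes that cycle over the day, and the age of the mice were not given in the sources used here. By the study's design text the deletion is made in macrophages, whereas the sequenced cells were CD4+ cells.

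The mammalian clock is a transcriptional feedback loop that runs in nearly every cell. The proteins of Arntl (also called BMAL1) and Clock pair and bind E-box sequences, where they switch on the Per, Cry, Nr1d and Dbp genes. PER and CRY proteins then block that pair, and the nuclear receptors REV-ERBα and REV-ERBβ, encoded by Nr1d1 and Nr1d2, repress Arntl through ROR elements. Dbp encodes an activator that binds D-boxes, and its transcript swings widely over the day in many tissues. In T cells the loop is known to bear on trafficking through lymph nodes and on responses to antigen. Per1 is also known as an early target of cAMP and of glucocorticoid signalling in several cell types.

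Per1 and Nr1d2 are the members whose levels moved together between libraries, and Cry1 is the member that varied least, so their promoter windows are shown first. The windows are RefSeq sequences of build GRCm38.p6, from 250 bases before to 50 bases after an annotated start, read 5′ to 3′ on the gene's strand. Capitals mark the E-box CACGTG, its variant CACGTT, the D-boxes TTATGTAA and TTATGCAA, the ROR element core TAGGTCA and the cAMP response element without its last base, TGACGTC, each sought on both strands. RefSeq gives Per1 a pair of windows.
Per1, upstream start (chr11:69098699-69098998, plus strand): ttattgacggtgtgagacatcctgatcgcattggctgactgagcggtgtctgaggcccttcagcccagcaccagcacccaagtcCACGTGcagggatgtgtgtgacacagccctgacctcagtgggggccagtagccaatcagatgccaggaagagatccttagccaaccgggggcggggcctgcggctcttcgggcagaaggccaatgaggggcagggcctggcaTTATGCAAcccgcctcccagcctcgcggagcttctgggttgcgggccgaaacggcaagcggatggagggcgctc
Per1, downstream start (chr11:69099902-69100201, plus strand): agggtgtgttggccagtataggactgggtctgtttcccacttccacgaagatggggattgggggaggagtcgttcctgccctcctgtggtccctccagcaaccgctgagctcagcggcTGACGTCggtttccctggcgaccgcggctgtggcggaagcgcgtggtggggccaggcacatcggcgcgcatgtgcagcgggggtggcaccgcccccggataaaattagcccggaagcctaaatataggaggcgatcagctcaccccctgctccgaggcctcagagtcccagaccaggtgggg
Nr1d2 (chr14:18239057-18239356, minus strand): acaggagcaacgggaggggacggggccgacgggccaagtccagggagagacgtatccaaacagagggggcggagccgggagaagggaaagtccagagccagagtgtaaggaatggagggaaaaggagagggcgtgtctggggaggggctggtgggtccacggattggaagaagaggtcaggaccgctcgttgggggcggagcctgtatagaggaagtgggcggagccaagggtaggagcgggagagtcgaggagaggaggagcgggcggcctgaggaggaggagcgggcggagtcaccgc
Cry1 (chr10:85185005-85185304, minus strand): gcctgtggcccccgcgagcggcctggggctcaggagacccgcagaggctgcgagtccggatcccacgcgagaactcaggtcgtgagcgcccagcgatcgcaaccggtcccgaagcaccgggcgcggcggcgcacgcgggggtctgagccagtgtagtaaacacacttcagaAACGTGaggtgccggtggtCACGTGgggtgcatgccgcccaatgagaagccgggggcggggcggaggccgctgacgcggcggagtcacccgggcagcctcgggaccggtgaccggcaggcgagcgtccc

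The upstream Per1 window holds the E-box CACGTG at position -166 from the start and the D-box TTATGCAA at position -24, and the downstream one holds TGACGTC at position -132. The Cry1 window holds CACGTG at position -60 and, on the opposite strand, CACGTT at position -79, which reads AACGTG in the line above. None of these motifs is in the Nr1d2 window. Over 13 windows of the 9 members other than Per2, CACGTG was in 2, CACGTT in 3, TTATGTAA in 1, TTATGCAA in 1, TAGGTCA in 1 and TGACGTC in 1, and the whole cAMP response element TGACGTCA, which contains TGACGTC, was in 0. The shares among all 32851 windows of that length were 7.15% for CACGTG, 4.68% for CACGTT, 0.938% for TTATGTAA, 0.743% for TTATGCAA, 2.61% for TAGGTCA, 3.21% for TGACGTC and 1.79% for TGACGTCA. TTATGTAA was found in the Per3 window at positions -205 and -158, and TAGGTCA in the second of the Arntl windows at position 30. Such matches describe the letters only.

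Library totals ran from 11.3 to 12.8 M counts in GLC and from 12.8 to 14.6 M counts in WT. Between 26 counts (Per3 in GLC replicate 6) and 4998 counts (Per1 in WT replicate 3) stood behind a member's value in a library. The libraries carried the defining transcripts of CD4+ T cells. The CPM of a gene in a library is its counts relative to the TMM-scaled size of the library. The marker sums given here use the library size without TMM scaling. On that scale Cd4, Cd3e, Cd3d, Cd3g, Cd5, Lck and Cd28 summed to 2829 to 3206 CPM in GLC and 2830 to 3152 CPM in WT. The 8 B cell markers summed to 6.79 to 18.8 CPM in GLC and 6.97 to 16.2 CPM in WT, and the 7 macrophage and monocyte markers to 4.25 to 7.14 CPM in GLC and 4.05 to 6.00 CPM in WT. The 6 plasma cell markers summed to 226 to 326 CPM in GLC and 171 to 285 CPM in WT. With TMM scaling, Xbp1 averaged 180.4 and 179.9 CPM of these and Jchain 50.3 and 30.0 CPM. The 5 stromal markers summed to 132 to 191 CPM in GLC and 140 to 188 CPM in WT, mostly from Pecam1. Which cells these transcripts came from was not tested. Lyz2, the lysozyme gene of the driver, was at 0 counts in GLC (at most 0.0412 CPM over the group for counting error alone) and at 12 counts in WT, of which 9 were in WT replicate 1 and 3 in the other 4 libraries together. The labels do not say that the replicates of a group were prepared apart, so p-values measure the spread between these libraries, which may in part be technical. In bulk RNA, fewer cells that express a gene and less RNA per cell cannot be told apart.

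**Figure D1:**
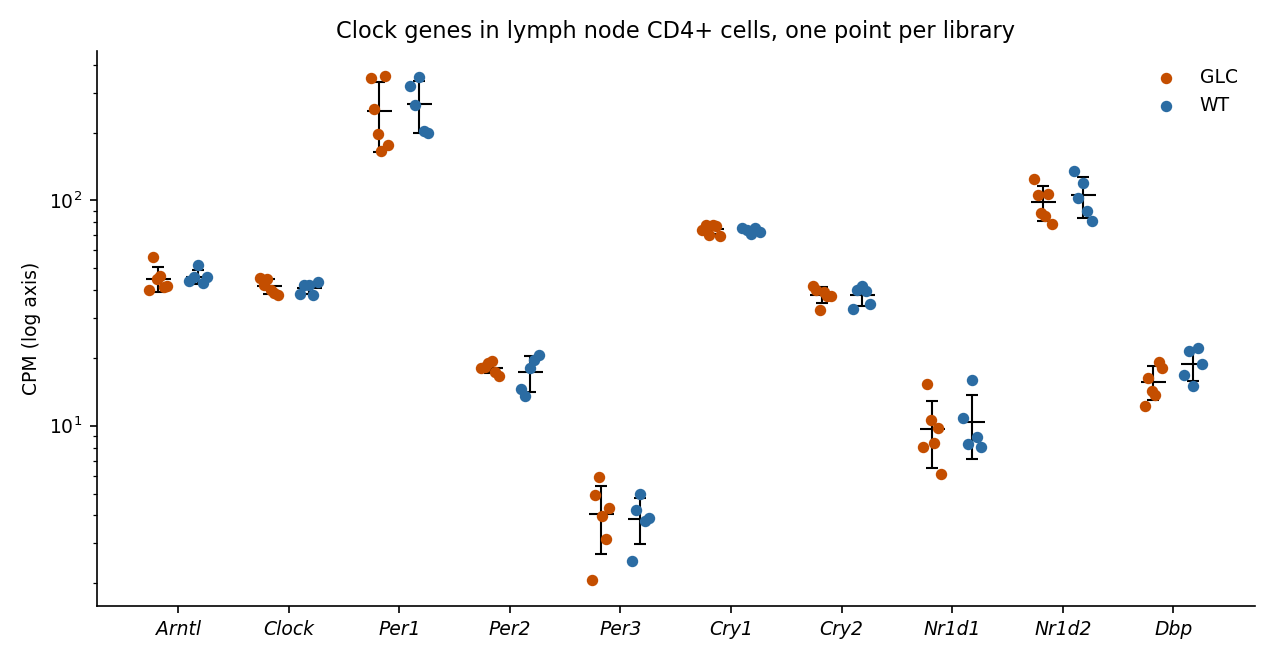
Levels of the 10 clock genes in CPM on a log axis, GLC left of WT for each gene. Each point is a library (6 GLC, 5 WT), the long tick is the group mean and the bar is 1 SD; the groups overlap for every gene, from 2.06 CPM for Per3 to 356.9 CPM for Per1.

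All 10 clock genes were transcribed in both groups, at levels that spanned 2 orders of magnitude. Per transcript length, taken as TPM over the union of annotated exons and averaged over the 11 libraries, Per1 was the highest at 148 ± 40.6 TPM (SD, n = 11), followed by Cry1 at 72.2 ± 6.06 TPM and Nr1d2 at 60.7 ± 9.46 TPM. Per1 lay above Cry1 in 11 of 11 libraries, and Cry1 above Nr1d2 in 8 of 11. Arntl (19.7 ± 3.04 TPM), Cry2 (19.6 ± 2.54 TPM) and Dbp (18.5 ± 3.29 TPM) lay within each other's spread. So did Nr1d1 (10.6 ± 3.61 TPM), Per2 (9.91 ± 1.66 TPM) and Clock (9.80 ± 1.16 TPM). Per3 was the lowest at 1.36 ± 0.447 TPM, and Clock lay above it in 11 of 11 libraries. Per1 alone made up 39.4% of the summed TPM of the 10 genes, averaged over libraries.

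No clock gene separated GLC from WT. Of the 10 genes 0 passed an adjusted p of 0.05 in edgeR's quasi-likelihood test over all 12404 genes, where 0 were called in either direction (0%). At an unadjusted p under 0.05 in edgeR the count was 0 of 10 clock genes and 563 of 12404 genes (4.54%). With single libraries left out the count over all genes ran from 320 (without WT replicate 2) to 789 (without GLC replicate 11). The count of clock genes was 1, Dbp, in 4 of these settings. Over all genes it was then 593 of 12530 (without WT replicate 1), 714 of 12473 (without WT replicate 3), 789 of 12347 (without GLC replicate 11) and 434 of 12226 (without GLC replicate 12). Without any other single library 0 clock genes had such a p. DESeq2 and limma-voom also called 0 of the 10. The groups' ranges overlapped for each of the 10 genes, and for all but 41 of the genes tested (0.331%). The log2 fold changes of GLC over WT ran from -0.27 to 0.07, with 5 above 0 and 5 below, and their median was -0.01, against -0.00016 over all genes tested. The adjusted p was 0.9997 in edgeR for each of the 10, and that value applies to every fold change of a clock gene given below. A p that misses the threshold does not show equal levels, so the 95% intervals are given as the sizes that remain possible.

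**Figure D2:**
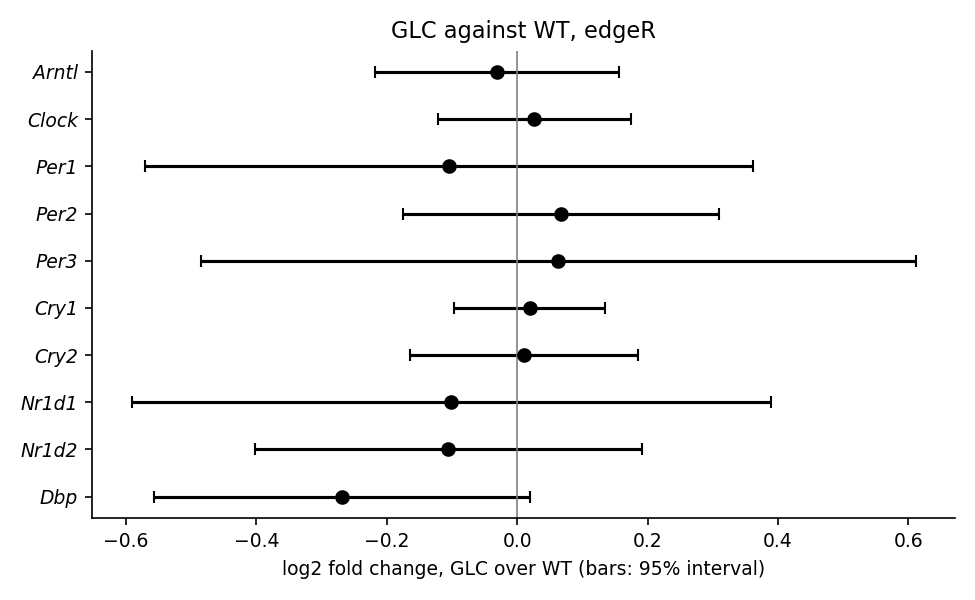
Log2 fold change of GLC over WT for the 10 clock genes, with 95% intervals from edgeR. The intervals of all 10 genes include 0, and they are narrowest for Cry1 (-0.10 to 0.14) and widest for Per3 (-0.49 to 0.61).

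The activator genes varied little between libraries. Arntl (ENSMUSG00000055116, chr7:113207465-113314126, GRCm38) encodes the partner on which the loop depends. It was at 40.2 CPM in the lowest GLC library, 43.2 CPM at the GLC median and 55.8 CPM in the highest, and at 43.98, 45.6, 51.6, 42.8 and 45.7 CPM in WT replicates 1 to 5. GLC replicate 78 was the highest of all 11 libraries, and the WT values lay inside the GLC range. This gave a log2 fold change of -0.03 (SE 0.09) with a 95% interval from -0.22 to 0.16. Clock (ENSMUSG00000029238, chr5:76209868-76304792), the histone acetyltransferase partner of ARNTL, was at 38.1, 41.2 and 45.5 CPM in the lowest, median and highest GLC library. It was at 38.5, 42.0, 42.3, 37.9 and 43.3 CPM in WT replicates 1 to 5, so the highest library of all exceeded the lowest by 1.2 times. Its log2 fold change was 0.03 (SE 0.07, 95% interval -0.12 to 0.17).

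Among the Per genes, which encode repressors, Per1 had the highest level per length. Its CPM differed 2.16 times between its highest and lowest library, against 1.53 times for Per2 and 2.88 times for Per3. Per1 (ENSMUSG00000020893, chr11:69095217-69109960) was at 350.0, 255.9, 196.4, 165.0, 356.9 and 177.0 CPM in GLC replicates 6, 78, 9, 10, 11 and 12. In WT replicates 1 to 5 it was at 323.6, 265.3, 353.7, 203.9 and 198.4 CPM. Each group held high and low libraries, with GLC replicates 6 and 11 and WT replicates 1 and 3 at 323.6 CPM or more, and GLC replicates 9, 10 and 12 and WT replicates 4 and 5 at 203.9 CPM or less. The means were 250.2 ± 85.9 CPM (SD, n = 6) in GLC and 269.0 ± 69.6 CPM (SD, n = 5) in WT. On the log2 scale the fold change came to -0.10, with an SE of 0.22 and a 95% interval from -0.57 to 0.36. Per2 (ENSMUSG00000055866, chr1:91415982-91459324) was at 16.7, 18.1 and 19.3 CPM in the lowest, median and highest GLC library, and at 14.5, 13.6, 18.04, 19.6 and 20.7 CPM in WT replicates 1 to 5. The GLC values all lay inside the WT range. Its log2 fold change of 0.07 (SE 0.11) had a 95% interval from -0.18 to 0.31. Per3 (ENSMUSG00000028957, chr4:151003652-151044665), a paralog that the core loop can run without in mice, was at 2.06, 4.14 and 5.92 CPM in the lowest, median and highest GLC library. In WT replicates 1 to 5 it was at 2.50, 4.23, 4.95, 3.79 and 3.88 CPM. With 26 to 70 counts a library, its log2 fold change of 0.06 (SE 0.26) had an interval from -0.49 to 0.61.

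The Cry genes, whose proteins are the main repressors of the activator pair, were nearly flat. Cry1 (ENSMUSG00000020038, chr10:85131700-85185064) was at 69.7, 75.6 and 78.1 CPM in the lowest, median and highest GLC library. It was at 75.3, 73.7, 71.1, 75.1 and 72.3 CPM in WT replicates 1 to 5, and the highest of the 11 libraries exceeded the lowest by 1.12 times. It had the narrowest interval of the 10 genes, -0.10 to 0.14, around a log2 fold change of 0.02 (SE 0.05). Cry2 (ENSMUSG00000068742, chr2:92403646-92434043) was at 32.8, 38.4 and 41.8 CPM in the lowest, median and highest GLC library, and at 33.1, 39.96, 41.8, 39.8 and 34.6 CPM in WT replicates 1 to 5. Its log2 fold change was 0.01 (SE 0.08, 95% interval -0.16 to 0.18).

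The REV-ERB genes form the second loop. Nr1d1 (ENSMUSG00000020889, chr11:98767932-98775333) was at 6.08, 9.05 and 15.4 CPM in the lowest, median and highest GLC library, and at 10.8, 8.32, 15.9, 8.91 and 8.03 CPM in WT replicates 1 to 5. A single library stood above the rest in each group, GLC replicate 78 and WT replicate 3. The log2 fold change of Nr1d1 was -0.10 (SE 0.23) with a 95% interval from -0.59 to 0.39. Nr1d2 (ENSMUSG00000021775, chr14:18204054-18239127) was at 124.6, 105.2, 87.8, 85.7, 107.2 and 78.7 CPM in GLC replicates 6, 78, 9, 10, 11 and 12. In WT replicates 1 to 5 it was at 135.1, 103.0, 119.5, 89.4 and 81.4 CPM. Its means were 98.2 ± 17.2 CPM (SD, n = 6) in GLC and 105.7 ± 21.9 CPM (SD, n = 5) in WT, a log2 fold change of -0.11 (SE 0.14, 95% interval -0.40 to 0.19). Exons of Nr1d1 share 263 bases (8.55% of its exon length) with Thra, a thyroid hormone receptor gene on the opposite strand. As no source used here gives the strand setting of the counting, reads there cannot be assigned to either gene with certainty. The log2 CPM of Thra had, as a description, a Pearson r of -0.432 with that of Nr1d1 over the 11 libraries. The same limit holds for 295 bases of Cry2 (4.67%) shared with D930015M05Rik and 33 bases of Arntl (0.439%) shared with Gm45355.

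Dbp had the smallest p of the 10 genes. Dbp (ENSMUSG00000059824, chr7:45705088-45710203) was at 12.2, 16.4, 14.3, 13.7, 19.2 and 18.1 CPM in GLC replicates 6, 78, 9, 10, 11 and 12. In WT replicates 1 to 5 it was at 16.8, 21.4, 15.1, 22.2 and 18.8 CPM. Only GLC replicate 11 lay above the WT mean, and 3 GLC libraries lay below every WT library. The means were 15.6 ± 2.69 CPM (SD, n = 6) in GLC and 18.8 ± 2.99 CPM (SD, n = 5) in WT. Dbp had a log2 fold change of -0.27 (SE 0.13) with a 95% interval from -0.56 to 0.02, an unadjusted p of 0.0662 and an adjusted p of 0.9997 in edgeR. With each library left out in turn that fold change ran from -0.33 to -0.20. The unadjusted p in edgeR was 0.0296 without GLC replicate 11, 0.0435 without GLC replicate 12, 0.0496 without WT replicate 1 and 0.0259 without WT replicate 3, with an adjusted p of at least 0.714 in each, and it was between 0.0773 and 0.165 without any other library. Exons of Dbp share 539 bases (18.0% of its exon length) with Sphk2, a sphingosine kinase gene on the opposite strand, and reads there cannot be assigned to either gene with certainty. Sphk2 averaged 55.3 CPM in GLC and 56.7 CPM in WT, and, as a description, its log2 CPM had a Pearson r of 0.273 with that of Dbp over the 11 libraries.

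The difference between Arntl and Dbp, an activator and an output of the loop, was taken in each library as a description. Whether it reads the state of the loop in these cells was not tested. On the log2 CPM scale Arntl minus Dbp was 1.71, 1.76, 1.63, 1.74, 1.10 and 1.20 in GLC replicates 6, 78, 9, 10, 11 and 12. In WT replicates 1 to 5 the difference came to 1.38, 1.09, 1.77, 0.95 and 1.27, so the groups overlapped. The means were 1.52 ± 0.295 (SD, n = 6) in GLC and 1.29 ± 0.313 (SD, n = 5) in WT, a difference of 0.23. With each library left out in turn the difference ran from 0.15 (without WT replicate 4) to 0.35 (without WT replicate 3), so it lay on either side of these SDs.

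The other genes of the clock gave no call either. Of 12 further loop factors 10 were tested, of 11 kinases and degradation factors 11, of 11 coregulators 11, and of 15 outputs 14. In each of these lists 0 genes passed in either direction over all genes tested. The median log2 fold changes were 0.07, -0.03, -0.04 and 0.01, against -0.00016 over all genes. Tef, a relative of Dbp that binds the same D-boxes, had the smallest p among the loop factors. It averaged 77.5 ± 6.36 CPM in GLC and 86.5 ± 6.95 CPM in WT, a log2 fold change of -0.16 (SE 0.07, unadjusted p = 0.0464 and adjusted p = 0.9997 in edgeR), with a single GLC library over the mean of WT. Bhlhe40, an E-box repressor, was at 0.41 (SE 0.29) and Rora, the activator that competes with REV-ERB proteins at ROR elements, at 0.25 (SE 0.24), both as log2 fold changes. Rorb had 1 count in GLC and 0 counts in WT.

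Among the kinases and degradation factors the log2 fold change was -0.07 for Fbxw11 (SE 0.07), a ubiquitin ligase subunit that marks PER proteins, and -0.06 for Csnk2a1 (SE 0.06). Among coregulators the genes of smallest p had log2 fold changes of -0.20 for Timeless (SE 0.11), -0.20 for Sirt1 (SE 0.13), a deacetylase, and 0.07 for Nono (SE 0.05), a partner of PER proteins. Among outputs they were 0.41 for Litaf (SE 0.21), -0.13 for Dtx4 (SE 0.07) and 0.12 for Klf9 (SE 0.13). Glucocorticoid response genes, 12 of 12 tested, had a median log2 fold change of -0.03 with 0 called. Within them Ddit4 was at 0.28 (SE 0.14), Tsc22d3, which encodes GILZ, at -0.16 (SE 0.13) and Fkbp5 at 0.17 (SE 0.15). Immediate early genes, 10 of 10 tested, had a median of -0.06 with 0 called, and Nr4a2 was at -0.33 (SE 0.29), Egr1 at 0.15 (SE 0.20) and Nr4a1 at -0.17 (SE 0.27). The adjusted p of every gene named in this paragraph was 0.9997 in edgeR.

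The clock genes differed in how much they varied between libraries of the same group. The biological coefficient of variation (BCV), edgeR's estimate of the relative spread between replicates beyond counting noise, had a median of 0.136 over all genes tested. Cry1 had a BCV of 0.0745, at the 0.322 percentile of all genes (rank 12365 of 12404 from the highest). Clock at 0.0871, Cry2 at 0.10 and Arntl at 0.107 also lay below the value typical of genes of their level, which was 0.128, 0.130 and 0.125. So did Per2 (0.131), where 0.159 was typical of its level, while Dbp (0.155) lay just under its typical value of 0.160. Per1 had a BCV of 0.254 where 0.122 was typical of its level, Nr1d2 0.166 against 0.121 and Nr1d1 0.260 against 0.190. Among all genes tested these lay at the 78.2, 61.1 and 79.2 percentiles. Per3 was at 0.275, against 0.284 typical of such a low level. In all, 5 of the 10 genes lay above the median BCV of all genes.

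**Figure D3:**
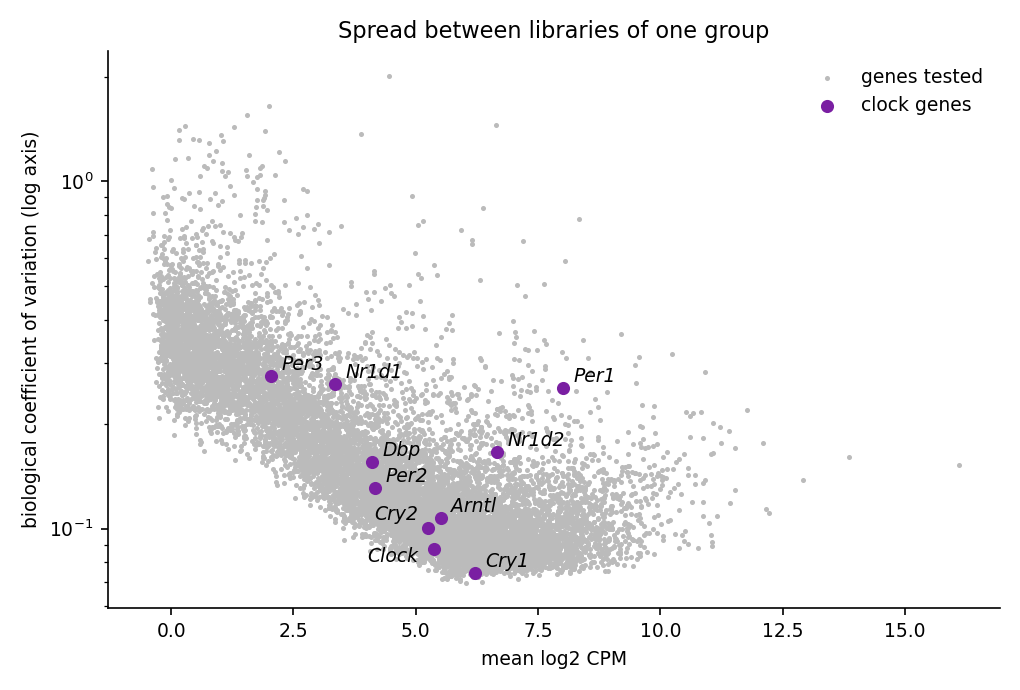
Biological coefficient of variation (log axis) against mean log2 CPM for the 12404 genes tested in grey and the 10 clock genes in purple. Per1 (0.254) and Nr1d2 (0.166) lie above the value typical of their level (0.122 and 0.121), and Cry1 (0.0745) lies at the lower edge.

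Per1 and Nr1d2 varied together, and no other pair of clock genes passed. Pearson's r and Spearman's rho of log2 CPM were computed for all 45 pairs over the 11 libraries, with two-sided permutation tests of 100000 resamples. Per1 and Nr1d2 had an r of 0.909 (permutation p = 0.00039, adjusted p = 0.0175 over 45 pairs) and a rho of 0.855 (permutation p = 0.00135, adjusted p = 0.0607). In the GLC libraries alone r was 0.921 (n = 6), and it was 0.906 with values centred on the group means (adjusted p = 0.0411, exact permutation within groups). GLC replicates 10 and 12 lay farthest from the Per1 median, and without them r was 0.888 (exact permutation p = 0.00285, adjusted p = 0.128). With WT replicate 2 left out r was 0.908 (permutation test, adjusted p = 0.0688), and with GLC replicate 12 left out 0.892 (adjusted p = 0.0522). Of the other 12403 genes tested, 29 (0.234%) had an r with Per1 at least as high as Nr1d2 had.

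**Figure D4:**
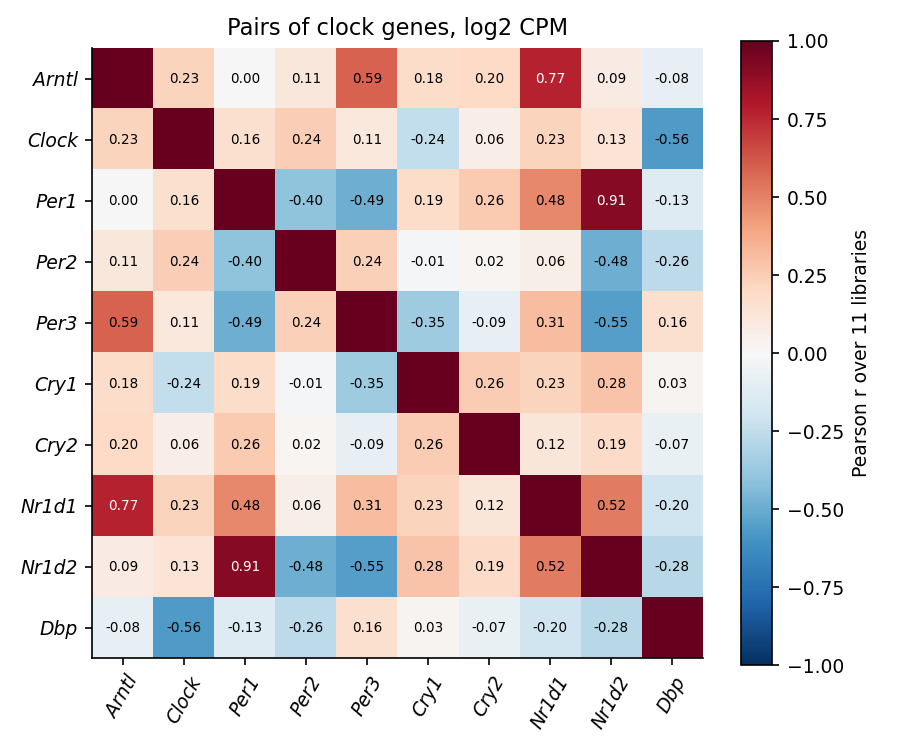
Pearson r of log2 CPM over 11 libraries for the 45 pairs of clock genes, red above 0 and blue below. Per1 with Nr1d2 (0.909) is the highest value and Clock with Dbp (-0.563) the lowest, and Arntl with Dbp is near 0 (-0.0796).

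Arntl and Nr1d1 had the second highest r, 0.77 (permutation p = 0.00732, adjusted p = 0.165; rho 0.455, adjusted p = 0.891). That value rested on GLC replicate 78 and WT replicate 3, where both genes were highest, and r was 0.187 without them. Of the other genes tested, 55 (0.443%) had an r with Nr1d1 at least that high. Over the 11 libraries Arntl had values near 0 with Dbp (r = -0.0796, rho = -0.155), with Per1 (r = 0.00468, rho = -0.227) and with Nr1d2 (r = 0.0851, rho = -0.145), with an adjusted permutation p of at least 0.891 for each. These values rested on GLC replicate 78 and WT replicate 3, since without them r was 0.137 with Dbp, -0.536 with Per1 and -0.356 with Nr1d2 (exact permutation, adjusted p of at least 0.751). Clock and Dbp had an r of -0.563 and a rho of -0.609 (adjusted permutation p of 0.707 and 0.738), and r was -0.414 without GLC replicate 12 and WT replicate 4.

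The high and low libraries for Per1 and Nr1d2 were also those of several immediate early genes, which encode transcription factors, phosphatases and kinases that T cells induce soon after activation. These relations were added after the levels had been seen, for the 10 clock genes against each of 10 immediate early genes, 100 in all. Sik1, a kinase gene induced by cAMP, was at 191.7, 152.0, 76.2, 79.1, 187.2 and 73.9 CPM in GLC replicates 6, 78, 9, 10, 11 and 12. In WT replicates 1 to 5 it was at 204.9, 108.0, 162.9, 86.1 and 92.7 CPM. The libraries high for Sik1 in each group, GLC replicates 6 and 11 and WT replicates 1 and 3, are the 4 libraries highest for Per1. Fos, an AP-1 subunit gene, was at 50.1, 92.8 and 247.7 CPM in the lowest, median and highest GLC library and at 288.2, 104.9, 127.6, 79.3 and 111.0 CPM in WT replicates 1 to 5. The mean log2 CPM of the 10 immediate early genes was 7.16 ± 0.563 (SD, n = 6) in GLC and 7.25 ± 0.535 (SD, n = 5) in WT.

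Of the 100 relations 15 passed an adjusted p of 0.05, 7 with Per1, 7 with Nr1d2 and 1 with Per3. Per1 had an r of 0.944 and a rho of 0.873 with Sik1 (adjusted permutation p of 0.005 and 0.0162 over 100 relations). With Dusp1, a MAP kinase phosphatase gene, the r of Per1 was 0.91 and its rho 0.836 (adjusted permutation p of 0.007 and 0.0241), and with Fos 0.875 and 0.845 (adjusted permutation p of 0.0114 and 0.021). Dusp1 is also among the glucocorticoid response genes, and relations of clock genes with the others of that list were not computed. Nr1d2 had an r of 0.936 and a rho of 0.909 with Dusp1 (adjusted permutation p of 0.004 and 0.0125). Per1 and Nr1d2 had an r of 0.909 with each other, so their relations with the same immediate early genes are not independent. With Sik1 the r of Nr1d2 was 0.929 and its rho 0.927 (adjusted permutation p of 0.004 and 0.008), and with Nr4a1, an orphan receptor gene induced by T cell receptor signals, 0.885 and 0.873 (adjusted permutation p of 0.005 and 0.0162). For Per1 the relations with Egr1 (r = 0.763), Crem (0.636) and Nr4a2 (0.622) did not pass (adjusted permutation p of 0.0603, 0.156 and 0.156). GLC replicate 11, the highest library for Per1, was at 60.5 CPM for Crem and 30.2 CPM for Nr4a2, whereas WT replicate 1 held their highest values, 124.0 and 88.5 CPM. Over the 10 immediate early genes the median r was 0.854 for Per1 (lowest 0.622) and 0.827 for Nr1d2 (lowest 0.731). An r with Per1 of at least 0.622 was found for 6.97% of all other genes tested. That r belongs to a relation that did not pass. The lowest r with Per1 that passed was 0.809 (Ier2), and the share of all genes at that level was not computed. No such share was computed for Nr1d2 or Per3. Genes outside the lists reached higher values, such as Gpr132 with Per1 (r = 0.976) and Epc2 with Nr1d2 (r = 0.971). Whether the counts of passing relations are particular to immediate early genes was not tested.

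The remaining clock genes gave other values with the immediate early genes. The median r was -0.106 for Arntl, 0.0803 for Clock, 0.221 for Cry1, 0.0264 for Cry2, 0.326 for Nr1d1, -0.333 for Per2 and -0.204 for Dbp, with 0 of 10 relations passing for each. Whether these values differ from those of Per1 and Nr1d2 was not tested. Per3 had an r below 0 with 10 of 10 immediate early genes (median -0.639), and the relation with Fos passed (r = -0.758, adjusted permutation p = 0.0417; rho -0.591, adjusted p = 0.318). Without GLC replicate 6 and WT replicate 1 that r was -0.494 (exact permutation, adjusted p = 0.592), so it rested on those libraries.

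**Figure D5:**
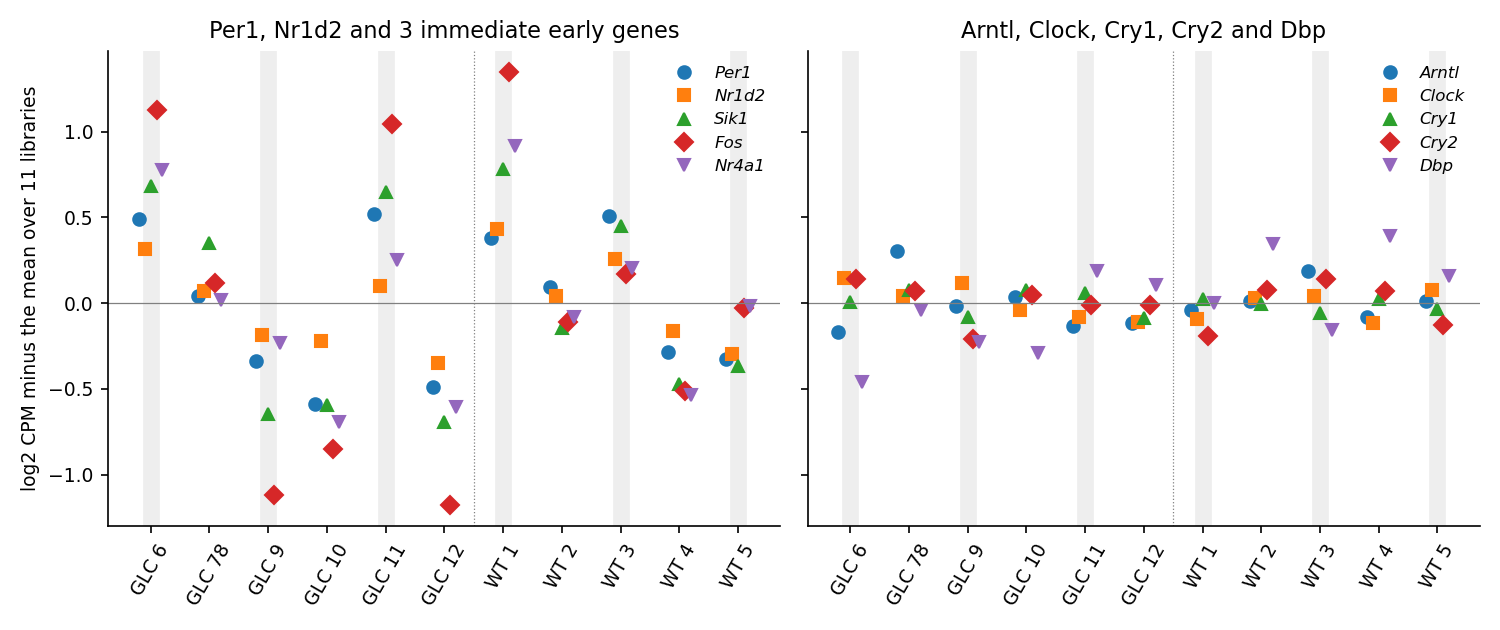
Log2 CPM minus the mean over 11 libraries, by library, with GLC left of the dotted line. On the left Per1, Nr1d2, Sik1, Fos and Nr4a1 lie mostly on the same side of 0 in a library, and on the right Arntl, Clock, Cry1 and Cry2 stay near 0 while Dbp spreads more.

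With each library left out in turn, r ran from 0.934 to 0.957 for Per1 with Sik1, from 0.894 to 0.934 for Per1 with Dusp1, from 0.915 to 0.956 for Nr1d2 with Sik1 and from 0.909 to 0.959 for Nr1d2 with Dusp1. With values centred on the group means these 4 were 0.947, 0.908, 0.934 and 0.935 (adjusted p between 0.0133 and 0.0252, exact permutation within groups). Without the 2 libraries farthest from the median of the clock gene they were 0.929, 0.899, 0.9 and 0.885, and 0 of the 100 relations passed over the 9 libraries left (adjusted p of 0.0908 for these 4, exact permutation). Library measures moved with Per1 and Nr1d2 as well. As a description with no test, r was -0.538 and -0.59 with the scaling factor of the library, 0.298 and 0.609 with the mitochondrial share of counts, and 0.433 and 0.416 with the mean of the 4 tested B cell markers. With the share of counts from the gene Gm42418, r was 0.334 for Per1 and 0.473 for Nr1d2. WT replicate 1 had the highest mitochondrial share, 2.64% of counts, against 1.31% to 1.64% in the other 10 libraries. It also had the highest Gm42418 share, 10%, against 5.99% to 7.82% in the other 10. The r of Per1 with Nr1d2 was 0.909 with RLE scaling and 0.903 with upper quartile scaling. The part of the mitochondrial share, of the Gm42418 share and of B cell transcripts in that r was not tested.

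The genes whose pattern over the 11 libraries was most like that of Dbp and Arntl, outside the lists, were found by Pearson r of log2 CPM, as a description. For Dbp they were Samd1 (r = 0.895), Ctdsp1 (0.89), Tspan14 (0.889), D10Jhu81e (0.873) and Mrm1 (0.863). For Arntl they were Dtnb (r = 0.881), Rasal2 (0.868), Pgm2l1 (0.866), Osbpl8 (0.843) and Tns1 (0.835). None of the other 9 clock genes reached these values with Dbp or Arntl.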

How the data were processed

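The deposited table holds raw read counts per Ensembl gene for 11 libraries of CD4+ cells. The submitters' processing notes name STAR, featureCounts and build mm10, with versions, annotation and strand setting not given in the sources used here. Symbols, positions and exon lengths came from GENCODE M21 (GRCm38), which matched 55230 of 55471 identifiers. Pairs of libraries differed beyond sampling noise (chi-square per degree of freedom 9.48 to 62.8), so none was treated as a copy.

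GLC and WT were compared with edgeR 4.0.16 under R 4.3.3 (filterByExpr, TMM, glmQLFit, two-sided glmQLFTest, Benjamini-Hochberg over 12404 genes, threshold 0.05). Log2 CPM used a prior count of 2. Correlations used numpy 2.4.6, with two-sided permutation tests. The steps were tested on 3 simulated data sets of GLC against WT over 12404 genes, each with 200 genes changed. In them 11.3% of 1.25-fold, 48.7% of 1.5-fold, 70.7% of 2-fold and 95.3% of 4-fold changes were found. Where fewer genes change, the Benjamini-Hochberg cut is stricter, so these rates overstate what would be found of a few changed genes. Alternatives were other scalings and filters, DESeq2 1.42.0, limma-voom (limma 3.58.1), a robust fit, covariates and each library left out. Members and lists were chosen with earlier results of these data known. Named genes were the 10 members, the 3 of smallest p in each list (1 of which is not reported here), and the 5 most like Dbp and Arntl, without predicted genes, pseudogenes and receptor segments. Counting intervals cover counting error only.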

Additional observations from a re-analysis of the deposited data

Results flagged for a closer look

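In 74 groups of 5 or 6 values, 6 had a library far from the rest by Dixon's criterion at 95%, where chance gives about 1 in 20 groups. No clock gene member was among them. Arntl2, the paralog of Arntl, which did not pass the filter on low counts, was at 6.24 CPM in GLC replicate 10 (74 counts), against 0.0768 to 0.348 CPM in the other GLC libraries and 0 to 0.237 CPM in WT. Klf9, a glucocorticoid and clock output gene, was at a log2 CPM of 4.80 in GLC replicate 11, against 4.17 to 4.37 in the other GLC libraries, and at 4.61 in WT replicate 1, against 4.07 to 4.203 in the other WT libraries. Tsc22d3 was at 8.46 in GLC replicate 11, against 7.62 to 7.91 in the other GLC libraries. Fkbp5 was at 6.52 in WT replicate 5, against 5.67 to 5.90 in the other WT libraries. Fbxw11 was at 7.04 in WT replicate 1, against 6.75 to 6.82 in the other WT libraries.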

How the results depend on the processing

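Under 20 alternatives 0 clock genes and 0 related genes were called. Over all genes 1 was called with no filter beyond 1 count and 2 with DESeq2 (Igkv5-48 alone, and Igkv5-48 with Ighv3-8), and 0 under the other 18. The log2 fold changes of Clock, Cry1, Nr1d2 and Dbp kept their sign in 20 of 20. With each library left out they ran from -0.099 to 0.020 for Arntl, -0.23 to 0.019 for Per1, -0.0086 to 0.15 for Per2, -0.070 to 0.20 for Per3, -0.037 to 0.054 for Cry2 and -0.28 to 0.11 for Nr1d1, and these 6 changed sign without single libraries. Per3 was at -0.0059 with the immediate early genes as a covariate, an alternative added after seeing the data; the cause was not tested. The number of clock genes above the median BCV was 5 or 6 without any single library. The number of passing pairs of clock genes was 0 to 1 with each library left out and 0 without the 2 farthest libraries, and that of passing relations with immediate early genes was 10 to 18 and 0, where only 9 libraries remain. Arntl minus Dbp was 0.15 to 0.35 with each library left out, around 0.23. No paired analysis was possible because the groups share no replicate numbers. Per3 had the fewest counts of the clock genes, 26 to 70 a library.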

Other observations

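The genes most like Per1 and Nr1d2, named after their values were seen and with no test, were the following. For Per1 the highest Pearson r over the 11 libraries, outside the lists, was that of Gpr132 (0.976), Kdm6b (0.96), a histone demethylase gene, Zfand2a (0.956), Ppp1r15a (0.951), which encodes the stress-induced phosphatase subunit GADD34, and Katna1 (0.944). For Nr1d2 it was that of Epc2 (0.971), Nfkb1 (0.962), an NF-kB subunit gene, Btg1 (0.959), an antiproliferative gene, Slc38a2 (0.952), an amino acid transporter gene, and Tnfaip3 (0.952), which encodes the NF-kB inhibitor A20. Their log2 fold changes of GLC over WT lay between -0.16 and 0.02, with an adjusted p of 0.9997 in edgeR for each.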
